A study of Mus musculus with 71 samples.

Results

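The 9 genes listed for this account encode products of the goblet cell and of the mucus that covers the gut lining, namely Muc2, Muc3, Muc13, Tff3, Clca1, Fcgbp, Zg16, Agr2 and Spink4. They were chosen by name, and 8 of the 9 have a row among the 24475 gene identifiers of each count table. Muc3 (identifier 666339) was not analysed here. The libraries came from Btnl2-KO mice, which carry a LacZ insertion that makes Btnl2 null, and from WT littermates, all of them female C57BL/6 mice that were housed together. Small intestine tissue gave 7 Btnl2-KO and 7 WT libraries, and colon tissue gave 7 and 6. The labels call these mice young without an age in weeks, and the sample titles name no segment of either organ. The epithelial fraction (IEC), which is the upper layer of a density gradient after the lining had been detached with EDTA, gave 16 libraries from mice labelled as 7 weeks old. These comprised 2 Btnl2-KO and 3 WT libraries of the duodenum, 3 and 3 of the jejunum, and 3 and 2 of the ileum, where the segments are equal lengths of the small intestine. γδ intraepithelial lymphocytes (γδ IELs), sorted as CD45+TCRβ-TCRγδ+ cells from mice labelled as 10 weeks old and pooled from pairs of mice, gave 22 libraries. These comprised 3 Btnl2-KO and 4 WT libraries of the duodenum, 4 and 4 of the jejunum, and 3 and 4 of the ileum. The labels name no treatment for any of these groups.

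Mucus is made mainly by goblet cells, a secretory lineage that is set by the transcription factor Atoh1 and matured by Spdef, Klf4 and Foxa factors. The gel-forming mucin Muc2 is its scaffold, and the protein disulfide isomerase Agr2 is needed in the endoplasmic reticulum to fold it. Fcgbp, the metalloprotease Clca1 and the lectin Zg16 are secreted with Muc2, Tff3 is a trefoil peptide that aids repair of the lining, and Spink4 is a small protein with a Kazal-type protease inhibitor fold. Muc13 and Muc3 differ from these, as they are anchored in the apical membrane and form part of the glycocalyx of absorptive cells as well. Goblet cells are known to become more frequent from the duodenum to the colon, and colonic mucus to form a layer that is attached to the surface.

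Muc2 lies at chr7:141690340-141754691 and Fcgbp at chr7:28071236-28120864 of GRCm38.p6, both on the plus strand. Agr2 is at chr12:35992925-36004081 and Muc13 at chr16:33794037-33819929, both also on the plus strand. Clca1 lies at chr3:145004537-145032776, Spink4 at chr4:40920056-40931395, Zg16 at chr7:127050156-127052675, and Tff3 at chr17:31125306-31129611. All are annotated as protein-coding genes, and the deposited values count reads over their exons. The RefSeq promoter table holds 5 of the 9 members. The 250 bases before the start of 4 of them are shown, because Muc2 and Agr2 were called between segments below, whereas Muc13 was not called by edgeR in the comparisons below, and Fcgbp had the lowest amount in sorted γδ IELs relative to the epithelial fraction. Capitals mark matches, on either strand, to CAGCTG (the E-box bound by Atoh1), TGTTTNC (Foxa), GGGNGTG (Klf4) or TATAAA (the TATA box).
Muc2, chr7:141690090-141690339, plus strand: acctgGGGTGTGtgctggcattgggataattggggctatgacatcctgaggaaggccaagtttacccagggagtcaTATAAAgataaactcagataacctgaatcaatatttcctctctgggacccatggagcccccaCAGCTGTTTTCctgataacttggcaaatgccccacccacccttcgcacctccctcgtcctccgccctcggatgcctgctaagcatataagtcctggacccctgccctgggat
Agr2, chr12:35992675-35992924, plus strand: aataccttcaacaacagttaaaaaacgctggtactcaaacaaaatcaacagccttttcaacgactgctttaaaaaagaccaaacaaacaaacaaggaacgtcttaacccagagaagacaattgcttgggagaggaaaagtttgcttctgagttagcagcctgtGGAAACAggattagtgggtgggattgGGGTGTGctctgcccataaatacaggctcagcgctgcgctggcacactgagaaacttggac
Fcgbp, chr7:28070986-28071235, plus strand: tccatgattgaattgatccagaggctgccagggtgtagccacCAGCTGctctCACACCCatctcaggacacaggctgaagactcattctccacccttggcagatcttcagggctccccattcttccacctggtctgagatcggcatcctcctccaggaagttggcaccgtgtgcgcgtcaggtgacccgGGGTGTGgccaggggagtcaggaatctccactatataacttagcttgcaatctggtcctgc
Muc13, chr16:33793787-33794036, plus strand: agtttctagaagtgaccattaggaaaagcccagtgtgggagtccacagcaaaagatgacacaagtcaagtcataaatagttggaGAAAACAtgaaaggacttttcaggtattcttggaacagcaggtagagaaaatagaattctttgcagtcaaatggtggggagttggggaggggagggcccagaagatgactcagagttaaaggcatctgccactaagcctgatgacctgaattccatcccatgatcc
The Muc2 window held 1 match to each motif, and its E-box and Foxa matches overlap. The Agr2 window held a Foxa and a Klf4 match, the Fcgbp window an E-box and 2 Klf4 matches, and the Muc13 window a Foxa match, while the window of a second listed Muc13 start held 0 matches. Among 32851 promoter windows of this length, 13% held CAGCTG, 17.8% TGTTTNC, 26.1% GGGNGTG and 12.4% TATAAA. These matches describe the letters and are no measurement of binding.

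Total counts ranged from 13619314 to 21708727 in tissue, 15397757 to 38258478 in IEC, and 13444964 to 30029485 in γδ IEL libraries. Levels are given as CPM (counts scaled to a common library total) after TMM scaling within each table. Btnl2, the deleted gene, was at 23.9 to 103 CPM in WT and at 0.674 to 2.44 CPM in Btnl2-KO small intestine, and in γδ IELs it was at 2.47 CPM or more in every WT library and at 0.124 CPM or less in every Btnl2-KO library. Among the IEC libraries, 3 labelled Btnl2-KO stood apart. The library labelled duodenum replicate 1 had 5.45 CPM of Btnl2 and the one labelled jejunum replicate 2 had 19.5 CPM, against 0.342 to 0.595 CPM in the other 6 Btnl2-KO libraries. Fabp6, an ileal bile acid carrier, was at 220 CPM in that duodenal library and at 484 CPM in that jejunal library, whereas it was at 0.231 CPM in the library labelled ileum replicate 1. WT libraries had 0.347 to 6.58 CPM of Fabp6 in the duodenum and 580 to 586 CPM in the ileum. Small intestine tissue had 105 to 2714 CPM of Fabp6 in WT and 431 to 3986 CPM in Btnl2-KO libraries. The position of this tissue along the small intestine was not tested. Pan-epithelial genes (12 markers such as Epcam and Krt8) summed to 8418 to 14310 CPM in IEC libraries and 605 to 9033 CPM in γδ IEL libraries, and 11 genes of γδ IEL identity summed to 42030 to 109300 CPM in the latter. The 6 smooth muscle markers reached at most 8.65 CPM in the IEC and 0.803 CPM in the γδ IEL libraries, against 2711 to 9961 CPM in tissue. In bulk samples, fewer cells of a type and less RNA per cell cannot be told apart.

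In whole tissue, the 8 measured members together took up 1.22 to 2.85% of all counts in the small intestine and 1.4 to 8.12% in the colon. Per kilobase of annotated exon, WT colon had its highest mean level for Zg16, at 3918 CPM per kb, followed by Clca1 (1925), Agr2 (1084), Tff3 (1013), Fcgbp (977), Muc13 (692) and Spink4 (594). In WT small intestine the order was Zg16 (2393 CPM per kb), Spink4 (2166), Tff3 (1403), Clca1 (1012), Muc13 (722), Agr2 (720) and Fcgbp (609). In the small intestine no neighbours in this order differed by more than the larger of their SDs, and in the colon this held for Agr2, Tff3 and Fcgbp and for Muc13 and Spink4. Muc2 was left out of these orders, since the annotation holds Muc2 transcripts of at most 2.03 kb, far shorter than the messenger RNA of this mucin. Its WT level was 4486 ± 1635 CPM (SD, n = 7) in the small intestine and 9409 ± 6803 CPM (SD, n = 6) in the colon.

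The first comparison asks how these products differ between small intestine and colon in WT mice. In WT colon, Muc2 was higher and Spink4 was lower than in WT small intestine, and the other 6 members did not pass the test (edgeR, quasi-likelihood, FDR below 0.05 and fold change above 1.5). Muc2 ranged from 2467 to 6592 CPM (median 4078) in the small intestine and from 3511 to 20630 CPM (median 6093) in the colon. The groups overlapped, and 2 colon libraries, replicates 1 and 3, held 14910 and 20630 CPM while the other 4 were at 6755 CPM or less. Colon replicate 1 also had the highest sum of Paneth cell genes, 520 CPM against 19.5 to 298 CPM, and 736 CPM of pancreatic acinar genes against 0.421 to 1.34 CPM, and their part in its Muc2 level was not tested. The log2 fold change was 1.05 ± 0.39 (SE) with an adjusted p of 0.041 by edgeR. Without colon replicate 3 it was 0.66 (edgeR adjusted p = 0.14), and the call was also lost without colon replicate 1 and without each of small intestine replicates 4, 5, 6 and 7. The newer quasi-likelihood method of edgeR did not call Muc2 either.

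Spink4 ranged from 289 to 3031 CPM (median 454) in WT small intestine and from 118 to 403 CPM (median 187) in WT colon. Small intestine replicate 1 held the highest value, and the groups overlapped. The log2 fold change was -1.89 ± 0.57 (edgeR adjusted p = 0.014), and -1.10 without that replicate (edgeR adjusted p = 0.025). With the mean of the pan-epithelial genes as a covariate the call of Spink4 was lost (-1.36, edgeR adjusted p = 0.063). Clca1, Fcgbp and Agr2 had unadjusted p-values below 0.05 with log2 fold changes of 0.91, 0.66 and 0.57, and edgeR adjusted p-values of 0.065, 0.053 and 0.066. Without small intestine replicate 1, 4 members were called higher in the colon, and these were Muc2, Clca1, Fcgbp and Agr2. The share of all genes called in that refit is not given here. Muc13 was close to level, at 2192 ± 651 CPM (SD, n = 7) against 2103 ± 463 CPM (SD, n = 6), with a log2 fold change of -0.08 ± 0.22. Of all 15162 genes tested, 27.6% were called in this comparison, so 2 of 8 members is close to the background share, and the members' median log2 fold change was 0.615 against -0.0247 for all genes.

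In Btnl2-KO mice, Agr2 was the member called higher in colon than in small intestine, and 30.2% of 14798 genes tested were called. Agr2 ranged from 342 to 495 CPM (median 401) in Btnl2-KO small intestine. In Btnl2-KO colon it ranged from 587 to 1136 CPM (median 867), with no overlap. Every colon library also lay above every small intestine one in 13.4% of all genes tested. The other 7 members overlapped, so this separation of Agr2 alone is close to the background share. The log2 fold change of Agr2 was 1.01 ± 0.15 (edgeR adjusted p = 4.48e-05). With the pan-epithelial covariate it was 0.60, and the call of Agr2 was lost (edgeR adjusted p = 0.22). Tff3 passed the adjusted p but not the fold change, with a log2 fold change of -0.46 ± 0.16 (edgeR adjusted p = 0.028), and so did Zg16 with 0.41 ± 0.16 (edgeR adjusted p = 0.047). Muc2 had a log2 fold change of 0.78 ± 0.37 (edgeR adjusted p = 0.093) and Spink4 of -1.01 ± 0.47 (edgeR adjusted p = 0.082). The members' median was 0.315 against 0.0214 for all genes. Clca1 depended on 1 library in this comparison. Colon replicate 7 held 32770 CPM of Clca1 against 2785 to 7408 CPM in the other 6, and the log2 fold change of Clca1 was 0.80 with it and -0.05 without it. The same library had 2485 CPM of summed Paneth cell genes against 20 to 175 CPM in the other 6, and their part in its Clca1 level was not tested.

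**Figure D1:**
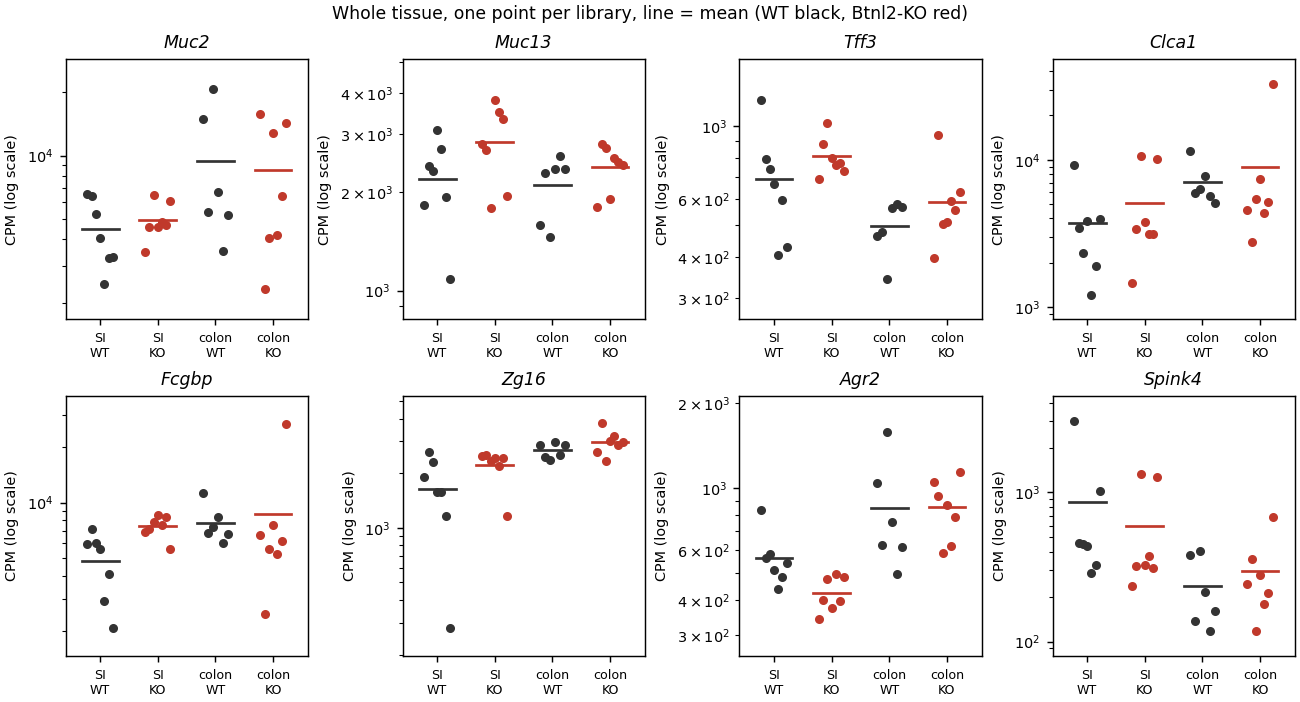
Levels of the 8 measured members in tissue of the small intestine (SI) and colon, as CPM on a log axis, with 1 point per library (7, 7, 6 and 7 libraries from left to right) and a line at the group mean. Muc2 spreads over 2328 to 20630 CPM in the colon, Spink4 lies lower in the colon, and Clca1 and Fcgbp have 1 high Btnl2-KO colon library at 32770 and 26890 CPM.

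Genes around the members were described from 4 lists fixed for these data. Of 9 secretory fate factors, 7 were higher in WT colon, with Creb3l1, a stress-responsive transcription factor of secretory cells, at a log2 fold change of 2.05 and Ern2, an endoplasmic reticulum sensor of mucus-secreting cells, at 1.52, and the list's median was 0.888. Of 15 enzymes of mucin O-glycosylation, 8 were higher and 3 lower. The sialyltransferase St3gal6 (2.81) and the fucosyltransferase Fut2 (2.72) were the highest of these, and the branching enzyme Gcnt4 (-4.76) and the sialyltransferase St3gal4 (-2.21) were the lowest. Of 18 other goblet cell and mucus layer genes, 9 were higher and 2 lower. Tgm3, a transglutaminase, had a log2 fold change of 10.8 and the chloride channel Best2 of 8.57, whereas the mucus-processing protease Mep1b had -3.17 and the chemokine Ccl9 -1.38. The membrane mucins Muc1 (4.17) and Muc4 (1.91) were the tested genes of the list of other mucins and trefoil factors, and both were higher in colon. In Btnl2-KO mice, the same 4 lists had 7 of 9, 5 of 15, 7 of 18 and 2 of 2 genes called higher and 0, 3, 3 and 0 called lower. Enterocyte genes were lower in WT colon in 10 of 10 and Paneth cell genes in 5 of 5 tested, and their part in the members' values was not tested.

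Tissue libraries of 1 group differed in which members they held. Over 27 tissue libraries, with each gene centred within its group, log2 CPM of Muc2 had a Pearson r of 0.776 with Agr2, 0.656 with Fcgbp, 0.576 with Clca1 and 0.539 with Spink4, but 0.0767 with Zg16, -0.159 with Tff3 and -0.482 with Muc13. The genes most like Muc2 among 10028 ranked were Kcnk6 (r = 0.947), Galnt12 (0.937), Ano7 (0.932), Slc2a10 (0.925) and Golm2 (0.919). Galnt12 starts mucin O-glycans and Kcnk6 is a potassium channel. Agr2 ranked 104 and Muc13 ranked 9419 of these. The points share the library, its depth and its position along the gut, so these values are a description.

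In the epithelial fraction of WT mice, every member had higher values in the ileum than in the duodenum, with calls for Muc2 and Agr2. Muc2 was at 651, 635 and 880 CPM in WT duodenum, 1553, 1293 and 1803 CPM in WT jejunum, and 3588 and 3586 CPM in WT ileum. The 3 segments did not overlap. Every jejunal library lay above every duodenal one in 4 of 8 members and in 9.73% of all genes tested. Every ileal library lay above every jejunal one in 6 of 8 members and in 11.6% of all genes tested. From duodenum to ileum the log2 fold change of Muc2 was 2.32 ± 0.24 (edgeR adjusted p = 0.0058). From duodenum to jejunum it was 1.12 ± 0.24 and from jejunum to ileum 1.21 ± 0.24, with edgeR adjusted p-values of 0.13 and 0.058.

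Agr2 was at 154, 163 and 197 CPM in WT duodenum, 377, 263 and 308 CPM in WT jejunum, and 411 and 455 CPM in WT ileum. Its segments did not overlap either, and from duodenum to ileum its log2 fold change was 1.35 ± 0.21 (edgeR adjusted p = 0.019). The call of Agr2 was lost without duodenum replicate 1 and without either ileum replicate, and that of Muc2 without ileum replicate 1, where 1 ileal library is left and is assumed to vary like the duodenal ones. One fit of all 16 IEC libraries, which include the 3 that stand apart, ended both calls and left 0 genes called (edgeR adjusted p = 0.16 for Muc2 and 0.18 for Agr2). Tff3, at 252, 226 and 216 CPM in the duodenum and 402 and 522 CPM in the ileum, had a log2 fold change of 1.01 ± 0.22 and missed the threshold (edgeR adjusted p = 0.052). Clca1 had 661, 214 and 612 CPM against 1432 and 2061 CPM, with a log2 fold change of 1.83 ± 0.47 (edgeR adjusted p = 0.09). Zg16, Fcgbp and Spink4 had log2 fold changes of 0.78, 0.61 and 0.57 and were not called. Muc13, the membrane mucin, was at 2404, 2369 and 2327 CPM in the duodenum and at 2548 and 2432 CPM in the ileum, a log2 fold change of 0.08 ± 0.21.

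Between ileum and duodenum 4.42% of 12784 genes tested were called, against 2 of 8 members, and all 8 members had every ileal library above every duodenal one, as did 17.7% of all genes tested. The members' median log2 fold change was 0.892 against -0.0139 for all genes. Between jejunum and duodenum 0.32% of 12505 genes were called, and between ileum and jejunum 1.13% of 12874. In these comparisons 0 members were called by edgeR, with 3 and 4 at an unadjusted p below 0.05, against 11.3% and 8.18% of all genes. DESeq2 called 2 members between jejunum and duodenum and 3 between ileum and jejunum, and limma-voom called 1 in each, so the intermediate steps depend on the method. Of all genes tested in these comparisons, DESeq2 called 329 and 342, and limma-voom called 152 and 177.

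**Figure D2:**
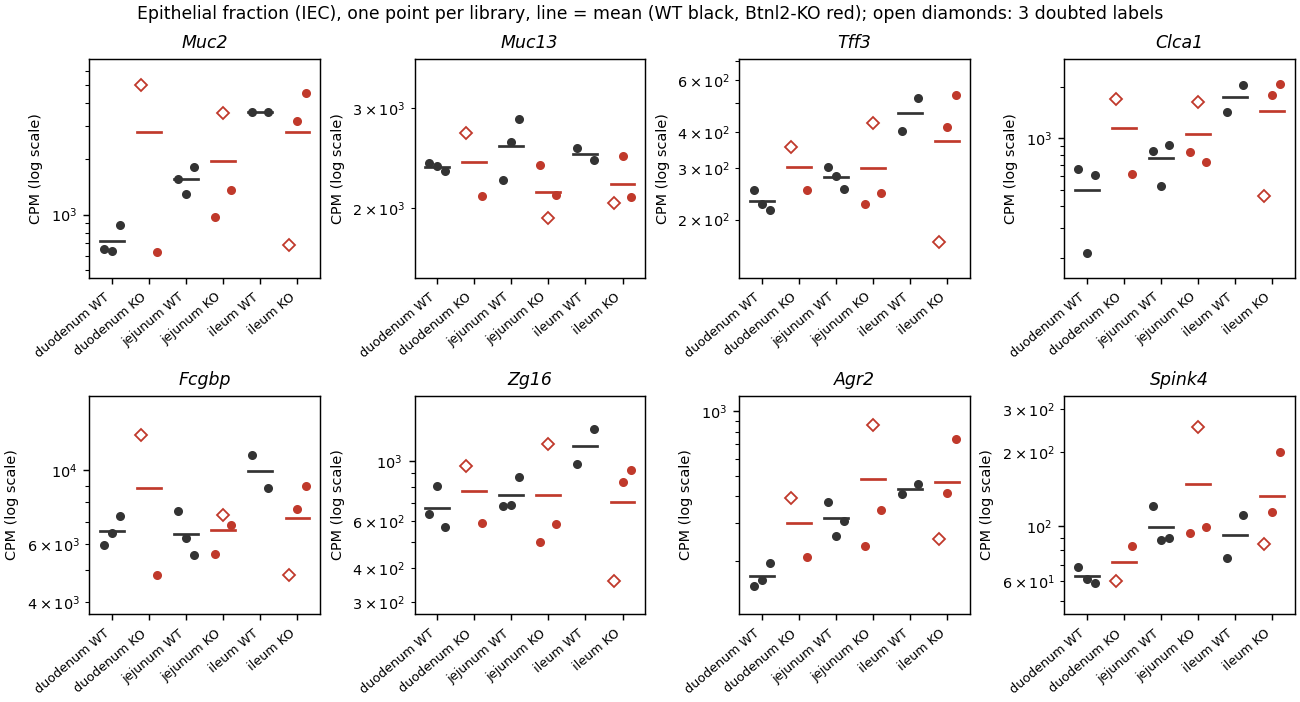
Levels of the 8 measured members in the epithelial fraction by segment, as CPM on a log axis, with 1 point per library and a line at the group mean. WT values (black) of Muc2 step from 635 to 880 over 1293 to 1803 to 3586 to 3588 CPM, Muc13 stays between 1925 and 2867 CPM in all 16 libraries, and the open diamonds are the 3 Btnl2-KO libraries whose Fabp6 or Btnl2 level goes against their label.

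Secretory fate factors were also higher in the ileum of the WT epithelial fraction, with 6 of 9 called between ileum and duodenum and a median log2 fold change of 1.42. Creb3l1 had a log2 fold change of 1.79 and Klf4 of 1.75. Of 16 other goblet cell and mucus layer genes tested, 5 were higher and 0 lower, with Retnlb, a resistin-like antibacterial protein, at 2.25 and Bcas1 at 2.13. Of 15 O-glycosylation enzymes, Fut2 (3.06) and the core enzyme Gcnt1 (2.87) were higher and St3gal6 was lower (-1.86). Fut2 and Gcnt1 were also the called enzymes between ileum and jejunum, at 1.22 and 1.90. Of 2 other mucins and trefoil factors tested, 0 were called by edgeR, and 0 had an unadjusted p below 0.05. Pan-epithelial genes were called higher in 1 of 12 (median 0.171), Paneth cell genes in 1 of 5, and enterocyte genes lower in 5 of 11, and their part in the members' values was not tested.

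In the Btnl2-KO epithelial libraries Muc2, Agr2, Clca1, Tff3 and Zg16 were highest for their label in the libraries labelled duodenum replicate 1 and jejunum replicate 2, which held the most Fabp6 for theirs, and lowest in the library labelled ileum replicate 1, which held the least. The library labelled duodenum replicate 1, which held 220 CPM of Fabp6, had 4990 CPM of Muc2, 12820 CPM of Fcgbp and 394 CPM of Agr2, while duodenum replicate 2, with 0.41 CPM of Fabp6, had 632, 4816 and 209 CPM. The library labelled ileum replicate 1, which held 0.231 CPM of Fabp6, had 687 CPM of Muc2, 459 CPM of Clca1 and 167 CPM of Tff3, while ileum replicates 2 and 3 had 3191 and 4555 CPM of Muc2, 1781 and 2074 CPM of Clca1, and 417 and 536 CPM of Tff3. The library labelled jejunum replicate 2, with 484 CPM of Fabp6, had 3528 CPM of Muc2 against 975 and 1352 CPM in jejunum replicates 1 and 3. Muc13 did not follow this order, as that jejunal library held 1925 CPM against 2380 and 2114 CPM. Fcgbp was highest in that library, at 7347 CPM against 5575 and 6851 CPM. The labels were kept for every value here, and segments were not tested in Btnl2-KO epithelial libraries.

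Over the 16 epithelial libraries, with each gene centred within its group, Muc2 was compared with the other members as in tissue. It had a Pearson r of 0.892 with Fcgbp, 0.865 with Agr2, 0.851 with Zg16, 0.837 with Tff3 and 0.835 with Clca1, against 0.457 with Spink4 and 0.303 with Muc13. Spdef, the goblet cell transcription factor, ranked 1 among 7979 genes with an r of 0.969, followed by Ddah1 (0.969), Ttc39a (0.968), Itgam (0.966) and Spats2l (0.964). These libraries include the 3 that stand apart from their labels. Centring by label keeps their distance from the group, such as 4990 against 632 CPM of Muc2 in Btnl2-KO duodenum. Their part in these r values was not tested.

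The sorted γδ IEL libraries also held transcripts of all 8 members, which are known as products of epithelial cells. In WT ileum Muc2 was at 80.9, 341, 194 and 96.8 CPM, in WT duodenum at 31.6, 31.0, 26.9 and 47.5 CPM, and in WT jejunum at 20.6, 59.2, 14.0 and 37.5 CPM. The ileal values lay above all others, with a log2 fold change of 2.38 ± 0.40 against the duodenum (edgeR adjusted p = 0.0089) and of 2.46 ± 0.53 against the jejunum (edgeR adjusted p = 0.0072). Agr2 was at 288, 1389, 1624 and 1329 CPM in the ileum and at 295, 356, 210 and 149 CPM in the duodenum, where ileum replicate 1 overlapped the duodenal range, and its log2 fold change was 2.19 ± 0.45 (edgeR adjusted p = 0.027). Clca1 did not overlap, at 153, 503, 596 and 423 CPM in the ileum against 95.7, 110, 98.9 and 59.5 CPM in the duodenum, with a log2 fold change of 2.20 ± 0.35 (edgeR adjusted p = 0.0064). Every ileal library lay above every duodenal one in 2 of 8 members and in 2.7% of all genes tested. Every ileal library lay above every jejunal one in 4 of 8 members and in 14.2% of all genes tested.

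Muc2, Agr2 and Clca1 were the members called between ileum and duodenum, where 2.16% of 12535 genes were called, and the members' median log2 fold change was 1.47 against -0.0108 for all genes. The call of Agr2 was lost on leaving out any of 6 of the 8 libraries, that is, each but duodenum replicate 2 and ileum replicate 1, and one fit of all γδ IEL libraries ended all 3 calls. Between ileum and jejunum 7 of 8 members were called higher, the exception being Muc13 at a log2 fold change of 0.31 ± 0.40, and 21.7% of 12643 genes were called. Spink4 led with 2.73 ± 0.53, followed by Agr2 (2.60 ± 0.54), Tff3 (2.55 ± 0.44), Muc2 (2.46), Zg16 (1.97 ± 0.40), Clca1 (1.45 ± 0.49) and Fcgbp (1.23 ± 0.42). The members' median was 2.21 against 0.00385 for all genes. The call of Fcgbp was lost without ileum replicates 2 or 3 or jejunum replicates 1, 3 or 4, and that of Clca1 without ileum replicates 2, 3 or 4 or jejunum replicates 1, 3 or 4. Between jejunum and duodenum 23.3% of 12629 genes were called, and Tff3 was the member called, at 131, 340, 107 and 248 CPM in the jejunum and 794, 608, 260 and 407 CPM in the duodenum, with a log2 fold change of -1.34 ± 0.40 (edgeR adjusted p = 0.025). This call was lost on leaving out duodenum replicates 1 or 2 or jejunum replicates 1 or 3, and in the one fit.

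Some epithelial markers moved along with the members in these sorted cells, and others went the opposite way. Summed pan-epithelial genes ranged from 3461 to 9033 CPM (median 7359) in WT ileum, from 2044 to 5649 CPM (median 3084) in WT jejunum, and from 3311 to 5303 CPM (median 4230) in WT duodenum, and summed Paneth cell genes from 8162 to 29590, 717 to 7457 and 1184 to 5743 CPM. Between ileum and jejunum 5 of 12 pan-epithelial genes were called higher and 1, Cdh1, lower (-0.71), and 5 of 5 Paneth cell genes were called higher. Enterocyte genes were called lower in 6 of 11 between ileum and jejunum (median -1.36) and in 8 of 11 between ileum and duodenum (median -2.78), and higher in 0. The part of these cell types in the members' values was not tested. With the mean of the pan-epithelial genes as a covariate, Muc2, Spink4, Tff3, Agr2 and Zg16 were still called higher in ileum than jejunum, at log2 fold changes of 1.45, 1.61, 1.60, 1.41 and 1.15, whereas Fcgbp (0.46) and Clca1 (0.44) were not. Between ileum and duodenum, 7 of 16 other goblet cell genes, led by Guca2a (2.67) and Bcas1 (2.66), and 3 of 9 fate factors, led by Atoh1 (2.52) and Creb3l4 (2.26), were higher, and 0 of either list was lower.

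**Figure D3:**
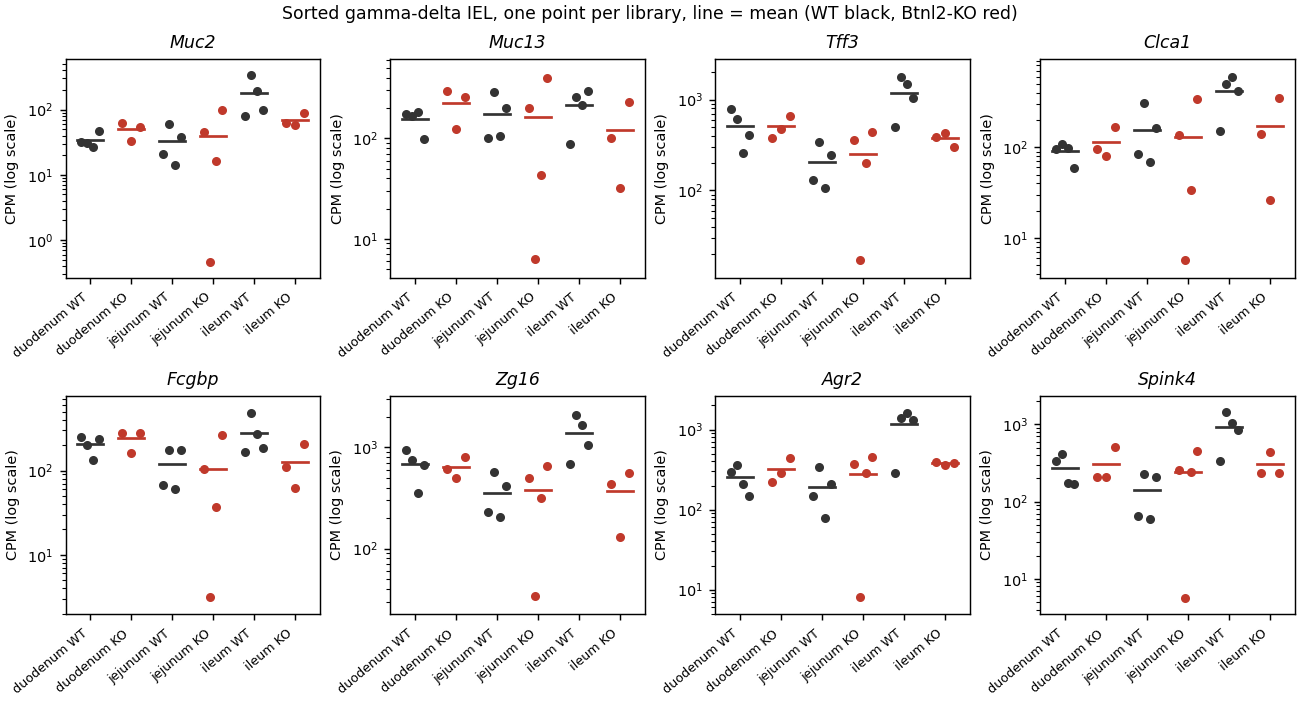
Levels of the 8 measured members in sorted γδ IEL libraries by segment, as CPM on a log axis, with 1 point per library and a line at the group mean. WT ileum (black) lies highest for Muc2, at 80.9 to 341 CPM, and 1 Btnl2-KO jejunum library lies far below the rest for every member, with 0.459 CPM of Muc2.

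The amount of a member in the γδ IEL libraries relative to the epithelial libraries differed widely between members. As means of the WT segments, Spink4 was at 443 CPM in the γδ IEL and 85 CPM in the IEC table, a ratio of 5.21, and Tff3 was at 637 and 324 CPM (1.97) and Agr2 at 535 and 307 CPM (1.74). Zg16 had similar values in both, 800 and 852 CPM (0.939). In contrast, Clca1 was at 222 and 1002 CPM (0.221), Muc13 at 182 and 2478 CPM (0.0735), Muc2 at 81.7 and 1953 CPM (0.0418), and Fcgbp at 201 and 7670 CPM (0.0261). Spink4 had the highest and Fcgbp the lowest ratio of the 8 in each of the 3 segments, and summed pan-epithelial genes had ratios of 0.355 (duodenum), 0.298 (jejunum) and 0.519 (ileum). Without TMM scaling the ratios ran from 4.92 for Spink4 to 0.0248 for Fcgbp, and relative to summed pan-epithelial counts from 10.7 to 0.0656.

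The order followed annotated exon length. As means of the segments, Spink4 (0.397 kb), Tff3 (0.493 kb), Zg16 (0.682 kb) and Agr2 (0.784 kb) had the ratios near or above 1, and Muc13 (3.04 kb), Clca1 (3.65 kb) and Fcgbp (7.93 kb) had those far below it. In the jejunum alone, the ratio was 0.738 for Tff3, 0.612 for Agr2 and 0.476 for Zg16, and 1.41 for Spink4. Over the 7 members with a usable length, Spearman's rho between length and ratio was -0.929, and over 62 other listed epithelial genes it was -0.648. By list of these others, rho ran from -0.881 for 8 secretory fate factors to -0.0604 for 13 enzymes of mucin O-glycosylation. Among these others, 6 genes with exons under 1 kb had a median ratio of 0.964, 31 genes of 1 to 2.5 kb of 0.568, 12 genes of 2.5 to 4 kb of 0.189, and 13 genes of 4 kb or more of 0.116. Some long genes went against this order, such as St3gal6 (4.41 kb, 3.84) and Sytl2 (3.84 kb, 2.47). Genes are not independent replicates, the tables were normalized separately, and the fraction and the library preparation of a table cannot be told apart, so no test was made between fractions.

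**Figure D4:**
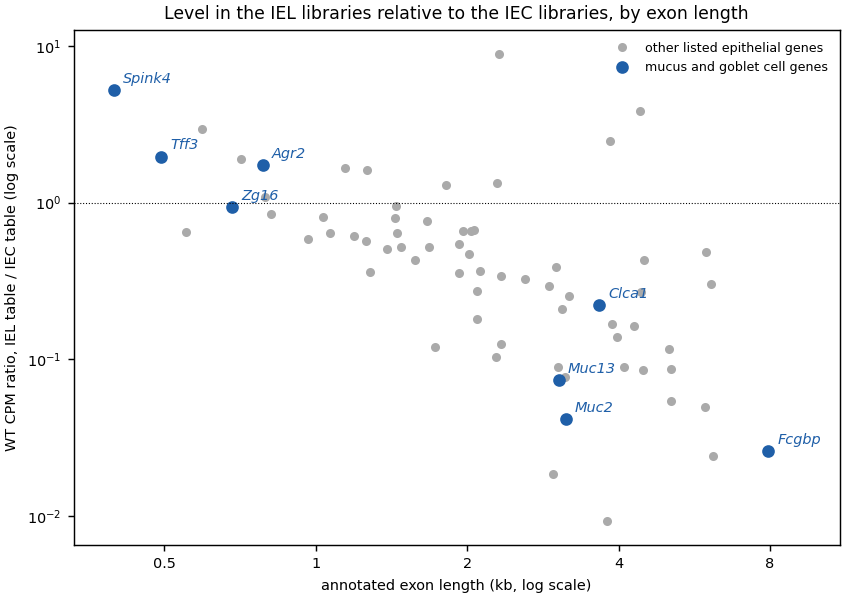
Ratio of the WT level in γδ IEL libraries to that in IEC libraries (vertical, log axis, means over the 3 segments) against annotated exon length in kb (horizontal, log axis), for the 8 measured members (blue) and other listed epithelial genes (grey). Short genes lie near or above a ratio of 1 and most long ones below it, with members from Spink4 at 5.21 to Fcgbp at 0.0261, and the length plotted for Muc2 is that of its incomplete annotation.

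The last comparisons ask whether loss of Btnl2 changed these products. By edgeR 0 of 8 members were called in any of the 8 comparisons of Btnl2-KO with WT, with 2 at an unadjusted p below 0.05 in the small intestine, 2 in IEC duodenum, 1 in γδ IEL duodenum, 6 in γδ IEL ileum and 0 in the other 4. Of all genes tested, 23% had such a p in the small intestine, 1.22% in IEC duodenum, 2.07% in γδ IEL duodenum and 8.79% in γδ IEL ileum, so 2 of 8 in the small intestine is close to the background share. DESeq2 and limma-voom also called 0 members in each, except in γδ IEL ileum. The share of all genes called was 0.0202% in the small intestine, 0.0269% in the colon, 0% in IEC duodenum, 0% in IEC jejunum, 0.00774% in IEC ileum, 0.00789% in γδ IEL duodenum, 0.00794% in γδ IEL jejunum and 0% in γδ IEL ileum. In IEC duodenum and jejunum, where edgeR called 0 genes, 154 and 1054 genes reached an unadjusted p below 0.05, while DESeq2 and limma-voom called 1 each.

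In the small intestine, Fcgbp ranged from 5564 to 8601 CPM (median 7535) in Btnl2-KO and from 2077 to 7170 CPM (median 5621) in WT libraries, with overlap, and its log2 fold change was 0.60 ± 0.24 (edgeR adjusted p = 0.17). Agr2 ranged from 342 to 495 CPM (median 401) in Btnl2-KO against 438 to 832 CPM (median 542) in WT, also with overlap, and had a log2 fold change of -0.42 ± 0.14 (edgeR adjusted p = 0.13). Muc2 was nearly equal, at 4973 ± 1012 and 4486 ± 1635 CPM (SD, n = 7 each). In the colon the members' log2 fold changes lay between -0.14 for Muc2 and 0.34, with a median of 0.165 against 0.0103 for all genes. The genotype effect was then compared between colon and small intestine as an interaction, in which 0.0193% of 15540 genes were called and 0 of 8 members, by edgeR, DESeq2 or limma-voom, and 0 members had an unadjusted p below 0.05 by edgeR.

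In IEC duodenum all 8 members had positive log2 fold changes, with a median of 0.43 against 0.00779 for all genes. Muc2 had a log2 fold change of 1.99 ± 0.71 (edgeR adjusted p = 1), from 4990 and 632 CPM in Btnl2-KO against 651, 635 and 880 CPM in WT libraries. Without the Btnl2-KO library that stands apart from its label it was -0.19. Agr2, at 394 and 209 CPM against 154, 163 and 197 CPM, did not overlap and was not called, and its 394 CPM came from that same library. Tff3 did not overlap either and was not called. Of all genes tested in IEC duodenum, 5.9% had every Btnl2-KO library above every WT library. In IEC jejunum and ileum, members had log2 fold changes between -0.69, for Zg16 in the ileum, and 0.59, for Agr2 in the jejunum. Zg16 was lower in all 3 ileal Btnl2-KO libraries (360, 833 and 925 CPM) than in both WT libraries (972 and 1309 CPM), and the lowest of them was the library labelled ileum replicate 1. Of all genes tested in IEC ileum, 9.82% had every Btnl2-KO library below every WT library, so 1 of 8 members is close to that share.

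In γδ IEL ileum all 8 members had negative log2 fold changes, from -1.87 ± 0.51 for Zg16 to -0.82 ± 0.57 for Muc13, with a median of -1.44 against 0.0637 for all genes, and their edgeR adjusted p-values were 0.43 to 0.66. Tff3 was at 391, 427 and 302 CPM in Btnl2-KO and at 494, 1766, 1464 and 1029 CPM in WT libraries, and Zg16 at 429, 129 and 552 CPM against 685, 2094, 1636 and 1046 CPM. In both, every Btnl2-KO library was below every WT library, as in 4.1% of all genes tested. Muc2 was at 61.8, 58.0 and 89.8 CPM against 80.9, 341, 194 and 96.8 CPM, where 1 Btnl2-KO library overlapped WT replicate 1. By edgeR 0 of 12604 genes were called, with 1108 at an unadjusted p below 0.05. DESeq2 called 4 members lower (Tff3, Zg16, Spink4 and Agr2) and 221 genes in all, and limma-voom called 8 members lower and 1207 genes in all.

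Other epithelial transcripts had lower values beside them. Summed pan-epithelial genes were at 1014 to 3635 CPM in ileal Btnl2-KO and 3461 to 9033 CPM in ileal WT γδ IEL libraries, with 8 of 12 genes at an unadjusted p below 0.05 and a median log2 fold change of -1.3. Summed Paneth cell genes were at 2791 to 8616 against 8162 to 29590 CPM, with 5 of 5 at an unadjusted p below 0.05, while enterocyte genes had a median log2 fold change of -0.343 with 1 of 10 at such a p. The sum of γδ IEL identity genes was at 47230 to 82130 against 45580 to 66910 CPM. With the pan-epithelial mean as a covariate, 0 of the 8 members had an unadjusted p below 0.05 by edgeR, and Muc13 and Clca1 had positive log2 fold changes of 0.66 and 0.54. As the pan-epithelial sums barely overlap between the genotypes, this fit can hardly tell covariate and genotype apart. The part of epithelial cells in the members' values was not tested.

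In γδ IEL duodenum and jejunum the members' log2 fold changes lay between -0.10 and 0.55 and between -0.24 and 0.81. Muc2 in the duodenum, at 62.3, 33.1 and 54.5 CPM in Btnl2-KO against 31.6, 31.0, 26.9 and 47.5 CPM in WT libraries, had 0.55 ± 0.24 (edgeR adjusted p = 0.997). In the jejunum 1 Btnl2-KO library, replicate 2, stood apart with 0.459 CPM of Muc2, 17.2 CPM of Tff3 and 34.5 CPM of Zg16, against 16.2 to 96.7, 201 to 436 and 313 to 655 CPM in the other 3. Its pan-epithelial sum was 605 CPM against 1504 to 5479 CPM, its Paneth cell sum 43.4 CPM against 1566 to 11450 CPM, and its sum of γδ IEL identity genes 57960 CPM against 42030 to 109300 CPM.

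**Figure D5:**
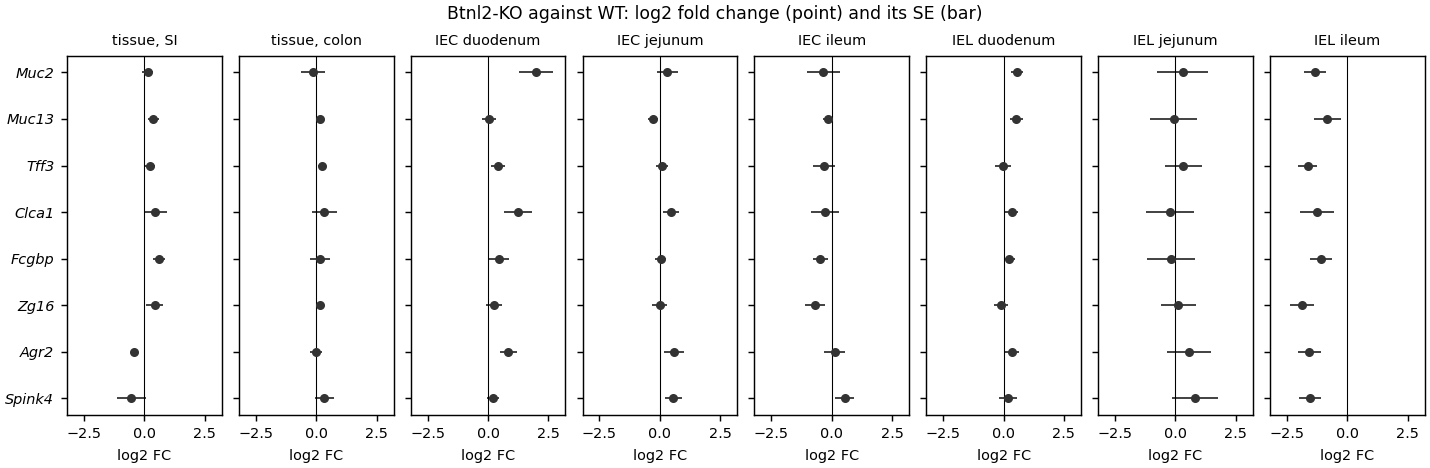
Log2 fold change of Btnl2-KO against WT (horizontal) with its SE (bar) for the 8 measured members in each of 8 comparisons. Points scatter around 0 in most panels, Muc2 in IEC duodenum is at 1.99 with a wide bar, and all 8 points lie below 0 in γδ IEL ileum, between -1.87 and -0.82.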

How the data were processed

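Bulk RNA-sequencing was analysed from 65 libraries. The authors used ArrayStudio for mapping, with a customized mouse genome for which the submitters' processing notes name GRCm38, and estimated sense-strand exon reads per gene with RSEM. The deposited values are expected counts, not normalized, and they were rounded to whole numbers. The labels and the methods name different library kits, and which library had which is not settled here. Of 24475 identifiers, 24375 matched a symbol, the other 100 took 0.253 to 9.24% of a library's counts and were kept, and 1 column of the γδ IEL table that belongs to no sample was not used. Single-cell files were not used.

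Each comparison was fitted to its 2 groups with edgeR 4.0.16 (TMM, quasi-likelihood test, R 4.3.3) on genes that reached 10 counts in a number of libraries equal to the size of the smaller group, with Benjamini-Hochberg adjustment over all genes tested. Calls needed an FDR below 0.05 and a fold change above 1.5. Main fits used the older quasi-likelihood method of edgeR, although the plan named the default of this version, which is the newer one. The newer method was run as an alternative. The SE is the size of the log2 fold change divided by the square root of F. Alternatives used DESeq2 1.42.0, limma 3.58.1 (voom with sample quality weights), RLE size factors, no filter, one fit for the whole table, a pan-epithelial covariate (log2 CPM with a prior count of 2), and each library left out. Correlations used log2(CPM + 1) and genes with a mean of at least 10 CPM. Exon lengths are from GENCODE vM21 and positions and promoters from RefSeq, both GRCm38. Scripts were tested on simulated data. The members and lists were chosen with earlier results of these data known. Text names all members, Btnl2, up to 2 called genes with the largest change per direction and list, and the 5 genes most like Muc2. Fabp6, the marker genes and the long genes beside the length ratio were named after their values were seen. Replicates are separate libraries. Nothing in the labels says which came from the same animal, so p-values measure the spread between libraries.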

Additional observations from a re-analysis of the deposited data

Results flagged for a closer look

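In 64 sets of 4 to 7 libraries of 1 group and 1 member, 9 held a library set apart from the rest by more than Dixon's 95% limit. Chance sets apart about 1 in 20 only where sets are independent and values normal. The limit was applied to CPM without a log scale, and the members share their libraries, so 9 of 64 is not read against that rate. Btnl2-KO colon replicate 7 was highest in 3 members, with Clca1 at 32770 CPM (others 2785 to 7408), Fcgbp at 26890 CPM (others 2484 to 7540) and Spink4 at 688 CPM (others 118 to 360), and it also held 2485 CPM of summed Paneth cell genes (others 20 to 175). WT small intestine replicate 1 was also highest in 3 members, with Spink4 at 3031 CPM (others 289 to 1020), Clca1 at 9212 CPM (others 1216 to 3980) and Agr2 at 832 CPM (others 438 to 581). Btnl2-KO colon replicate 2 held 939 CPM of Tff3 (others 397 to 631), Btnl2-KO small intestine replicate 7 held 1163 CPM of Zg16 (others 2202 to 2526), and WT duodenal γδ IEL replicate 4 held 99.3 CPM of Muc13 (others 168 to 182). The causes were not tested. No member had Btnl2-KO libraries all above WT in 1 segment and all below in another of the same fraction, and 0 members passed the interaction test of genotype with tissue by edgeR.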

How the results depend on the processing

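Over the members and named genes, 1012 of the alternative values of calls kept direction and call and 124 lost the call, and of values not called 440 stayed so, 62 were called and 3 turned direction. In WT colon against small intestine, where 1 member was higher and 1 lower, DESeq2, limma-voom and one fit of all tissue libraries gave 2 higher. Of all 15162 genes tested they called 4233, 4196 and 4218, against 4185 in the main fit. The newer edgeR method, named in the plan but run as an alternative, gave 0 higher, with 4195 genes called in all. Muc2 was therefore not called by the newer method. The pan-epithelial covariate gave 5 higher and 0 lower, with 4503 genes called in all. Leaving out the small intestine libraries low in Fabp6, chosen after seeing the data, gave 0 higher and 2 lower. There 4003 of 15091 genes were called. In Btnl2-KO mice limma-voom gave 2 higher and 1 lower and the covariate 2 lower, with Tff3 turned to 0.13. Of 14798 genes tested these called 4580 and 3861, against 4462. For IEC ileum against duodenum DESeq2 gave 4 higher, limma-voom 5 and one fit 0. For jejunum against duodenum they gave 2 (DESeq2) and 1 (limma-voom), and for ileum against jejunum 3 and 1. For γδ IEL ileum against duodenum DESeq2 gave 5 higher, limma-voom 6 and one fit 0. For γδ IEL jejunum against duodenum DESeq2 gave 2 lower, limma-voom 4, one fit 0 and the covariate 4, with 1 higher. Of 12629 genes tested these called 3134, 3517, 2110 and 2834, against 2937. For Btnl2-KO against WT γδ IEL ileum DESeq2 gave 4 lower and limma-voom 8. The cause was not tested.

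Leaving out 1 library at a time gave 0 to 4 members higher and 1 to 2 lower in WT colon, 1 to 2 higher and 0 to 1 lower in Btnl2-KO colon, 0 to 5 higher in IEC ileum against duodenum, 2 to 5 in γδ IEL ileum against duodenum and 5 to 7 against jejunum, 0 to 2 lower in γδ IEL jejunum against duodenum, and 0 to 2 lower in Btnl2-KO γδ IEL ileum, where the 2 came without WT replicate 1. Shares of all genes called in these refits are not given here, so these counts of members have no background beside them. The log2 fold change of Muc2 in Btnl2-KO IEC duodenum ran from -0.19 to 2.82, and was -0.19 without the library whose label its own genes go against. One fit of all IEC libraries called 0 genes in all between WT segments, against 565, 40 and 145. DESeq2 called 1042, 329 and 342, and limma-voom 1755, 152 and 177. Without the filter 106 genes were called between IEC jejunum and duodenum. For γδ IEL ileum against duodenum, DESeq2 called 502 genes, limma-voom 544 and one fit 118, against 271, and for ileum against jejunum limma-voom called 4215 and one fit 1426, against 2748. For Btnl2-KO against WT, DESeq2 and limma-voom called 177 and 51 genes in small intestine against 3, where one fit called 215, and 10 and 7 in colon against 4. In the IEC and other γδ IEL genotype comparisons, γδ IEL ileum apart, no alternative other than leaving out a library by turn called more than 4 genes. The interaction had 3 calls, and 10, 9 and 9 by DESeq2, limma-voom and without the filter. The older quasi-likelihood method of edgeR was used for every main fit. The plan had named the default of the version used, which is the newer method, and that method is given as an alternative. Relative to summed pan-epithelial counts, all 8 fraction ratios moved. No paired analysis was possible because the labels give no animal or pair numbers, and replicate numbers here follow the order of deposit. With 2 or 3 IEC libraries a group, small differences were not detectable.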
